A study of Mus musculus with 9 samples.

Results

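The histone genes of Hepa 1-6 cells, a mouse hepatoma line, were followed through 9 RNA sequencing libraries. The set comprised the protein-coding genes named as linker histones (H1f) or as clustered core histones (H2ac, H2bc, H3c and H4c), with the variants H2az1, H2az2, H2ax, H3f3a and H3f3b. It held 74 of the 53647 genes in the table: 64 genes in the histone clusters of chromosomes 13 (54 genes) and 3 (10 genes), 5 linker genes elsewhere (H1f0, H1f7, H1f8, H1f9 and H1f10) and the 5 variants. Controls carried a control guide (sgControl, 3 libraries), and the other libraries came from cells in which Usp5 (3 libraries) or Ythdf1 (3 libraries) had been knocked out with CRISPR. Usp5 encodes a deubiquitinase that takes apart free ubiquitin chains. YTHDF1, the product of Ythdf1, reads the N6-methyladenosine mark on mRNA in the cytoplasm. The series set out to compare the expression changes caused by loss of either protein. Usp5 was targeted from a lentiviral vector and Ythdf1 from Cas9 and EGFP plasmids, after which single-cell clones were raised and tested for the protein on immunoblots. How many clones the libraries stand for, and whether the control was a clone, is not given in the labels, so an effect of the knockout and a trait of a clone cannot be told apart. Replicates are numbered but are not said to be separate cultures, so p-values reflect no more than the spread among these libraries, and that spread may be technical.

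Cells make histones in 2 ways. Replication-dependent genes lie in clusters, are transcribed in S phase to package new DNA, and give mRNAs that end in a short stem-loop bound by SLBP instead of a poly(A) tail. Replacement variants such as H3.3 and H2A.Z come from single genes with ordinary polyadenylated mRNAs and are made through the whole cell cycle. A library made from poly(A) RNA therefore sees the clustered genes mainly through transcripts that were polyadenylated past the stem-loop or that slipped through selection, and their level in such a library need not follow the total histone mRNA of the cell.

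The stem-loop is shown first because histone transcripts that end at it lack the poly(A) tail by which such libraries capture mRNA. The annotated transcripts of the members were searched for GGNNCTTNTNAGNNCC with 6 paired bases in the stem. The element was found in 43 of the 64 cluster genes and in H2ax, but in no other member outside the clusters. Over the whole annotation it was found in 61 of the 55450 genes (0.11%). Many cluster genes without a match have short annotated transcripts, such as 312 bases in H4c12, 381 in H2bc13 and 411 in H3c10. Sequence past an annotated end could not be searched, so a missing match does not mean that the gene lacks the element. The commonest form, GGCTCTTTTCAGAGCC, stood in 24 cluster genes. Capitals mark the 16-base stem-loop with 5 bases on each side, in DNA letters, for members on which the results turn:
H1f2: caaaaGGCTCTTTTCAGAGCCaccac
H2ac6: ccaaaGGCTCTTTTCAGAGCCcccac
H2ac19: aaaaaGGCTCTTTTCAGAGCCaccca
H2bc6: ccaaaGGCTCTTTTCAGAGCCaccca
H3c15: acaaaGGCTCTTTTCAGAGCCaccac
H4c9: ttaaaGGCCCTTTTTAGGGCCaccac
H2ax: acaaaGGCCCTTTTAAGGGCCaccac
H1f2, H2ac6, H2ac19, H2bc6 and H3c15 carried the same 16 bases, and H4c9 and H2ax carried forms with other stem pairs and other loop bases.

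Annotated transcripts differed in where they ended. For each gene the transcript reaching furthest past the stem-loop was taken. In 22 cluster genes it ended within 60 bases of the stem-loop, as in H2ac18 and H2ac19 (35 bases each). In 21 it ran further: 840 bases in H1f2, 1861 in H2bc6 and 2010 in H2ac6. A poly(A) signal (AATAAA or ATTAAA in the last 40 bases of a transcript) was found in 14 of the 64 cluster genes, H1f2 and H2bc6 among them, and in 8 of the 10 members outside the clusters. H2ax held both a stem-loop and, 822 bases further on, an end with a poly(A) signal.

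The promoters of the cluster genes share short motifs. RefSeq promoter windows (GRCm38.p6, 250 bases before to 50 after the start) were matched by symbol for 66 of the 74 members. The unmatched members were H1f9, H2ax, H2bc4, H2bc21, H2bc24, H3c1, H3c7 and H4c14. Searched on both strands, TATAAA stood in 34 of 58 cluster gene windows (58.6%) against 13.6% of all 32851 windows in the table, and CCAAT in 50 of 58 (86.2%) against 37.4%. The octamer ATTTGCAT, the textbook element of H2B promoters, stood in 7 of 14 H2B and 6 of 17 H2A windows and in no other cluster gene window, 13 of 58 (22.4%) against 1.74% of all windows. The windows of H2ac1 and H2bc1, of H2ac8 and H2bc8, and of H2ac12 and H2bc12 overlap on opposite strands. In each of these pairs the same octamer is counted for both genes. Other H2A and H2B windows overlap too, so the 58 windows are not independent. None of these motifs contains another, and a match here describes letters only. Windows of 4 genes that rose in the Ythdf1 knockout are printed 5′ to 3′ on the gene's strand with these motifs, in either orientation, in capitals:
H1f2, chr13:23738557-23738856, plus strand: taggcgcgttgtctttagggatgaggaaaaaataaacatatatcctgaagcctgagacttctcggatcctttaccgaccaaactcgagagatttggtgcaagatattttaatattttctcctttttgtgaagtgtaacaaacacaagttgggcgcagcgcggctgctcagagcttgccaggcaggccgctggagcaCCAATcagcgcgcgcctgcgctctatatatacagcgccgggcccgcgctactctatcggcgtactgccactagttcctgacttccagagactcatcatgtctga
H2ac6, chr13:23683910-23684209, minus strand: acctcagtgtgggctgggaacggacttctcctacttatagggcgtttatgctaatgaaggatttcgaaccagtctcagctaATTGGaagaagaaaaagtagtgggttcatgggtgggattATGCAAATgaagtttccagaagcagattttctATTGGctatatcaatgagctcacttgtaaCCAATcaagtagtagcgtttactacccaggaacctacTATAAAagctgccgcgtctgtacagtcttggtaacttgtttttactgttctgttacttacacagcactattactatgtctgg
H2bc8, chr13:23571150-23571449, plus strand: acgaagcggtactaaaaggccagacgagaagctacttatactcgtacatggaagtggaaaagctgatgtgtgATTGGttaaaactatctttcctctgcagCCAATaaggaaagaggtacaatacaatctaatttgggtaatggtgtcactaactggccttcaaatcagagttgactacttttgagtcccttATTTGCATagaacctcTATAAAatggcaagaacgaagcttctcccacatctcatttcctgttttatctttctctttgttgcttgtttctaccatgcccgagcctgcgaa
H4c9, chr13:22041313-22041612, minus strand: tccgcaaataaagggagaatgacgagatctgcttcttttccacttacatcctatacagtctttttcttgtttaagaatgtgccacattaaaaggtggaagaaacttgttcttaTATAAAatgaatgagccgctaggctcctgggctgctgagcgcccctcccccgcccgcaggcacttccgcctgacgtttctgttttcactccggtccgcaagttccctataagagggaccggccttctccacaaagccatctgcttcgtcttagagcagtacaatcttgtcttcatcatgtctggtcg
H2ac6 and its neighbour H2bc4 lie side by side on opposite strands, and the H2ac6 window held all 3 motifs, as did that of H2bc8. The H1f2 window held CCAAT alone and the H4c9 window TATAAA alone.

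Libraries held between 24760877 and 42989715 counts, and levels are given as CPM, the usual depth-scaled count, on TMM library sizes. Usp5 and Ythdf1 transcripts were lower in their own knockouts, by 0.89 and 1.97 on the log2 scale (edgeR, Benjamini-Hochberg adjusted p = 0.000316 and 1.21e-07). Among 8 hepatocyte markers, Alb and Afp were high (534 to 689 and 1006 to 1082 CPM in controls) while Ttr, Apoa1 and Serpina1a were under 0.38 CPM in every control. Their summed level ran from 2035 to 2166 CPM in controls, 2480 to 2834 in the Usp5 knockout and 3254 to 3536 in the Ythdf1 knockout. Leukocyte and endothelial markers summed to at most 8.73 and 1.23 CPM. The 5 fibroblast and stellate markers summed to 854 to 1267 CPM in controls, 1083 to 1414 in the Usp5 knockout and 1061 to 1289 in the Ythdf1 knockout. Nearly all of this was the proteoglycan gene Dcn, while Lrat was at 0 in every library and Col1a1, Col1a2 and Pdgfrb were at most 1.30 CPM. Control replicate 3 stood apart from the other controls, with 5.91% of its counts from mitochondrial genes against 2.33% and 2.32%. Mitochondrial shares were 3.67% to 6.14% in the knockouts.

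Transcripts of the cluster genes were scarcer in the Usp5 knockout and more abundant in the Ythdf1 knockout than in control. Summed over all 64 genes they reached 70.2, 66.6 and 60.02 CPM in the controls, 32.2, 29.9 and 31.98 CPM in the Usp5 knockout, then 173, 166 and 190.0 CPM in the Ythdf1 knockout. The 3 groups did not overlap, and each stood well apart from the next. The means were 65.6 ± 5.18, 31.4 ± 1.28 and 177 ± 12.2 CPM (SD, n = 3), so that the Usp5 knockout held 47.8% of the control level and the Ythdf1 knockout 269%, a 5.63-fold span between knockouts. These sums do not depend on how reads were split between near-identical copies among the 64 genes. Without control replicate 3 the control mean was 68.4 CPM. In bulk RNA, fewer cells making a transcript and less of it per cell cannot be told apart.

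**Figure D1:**
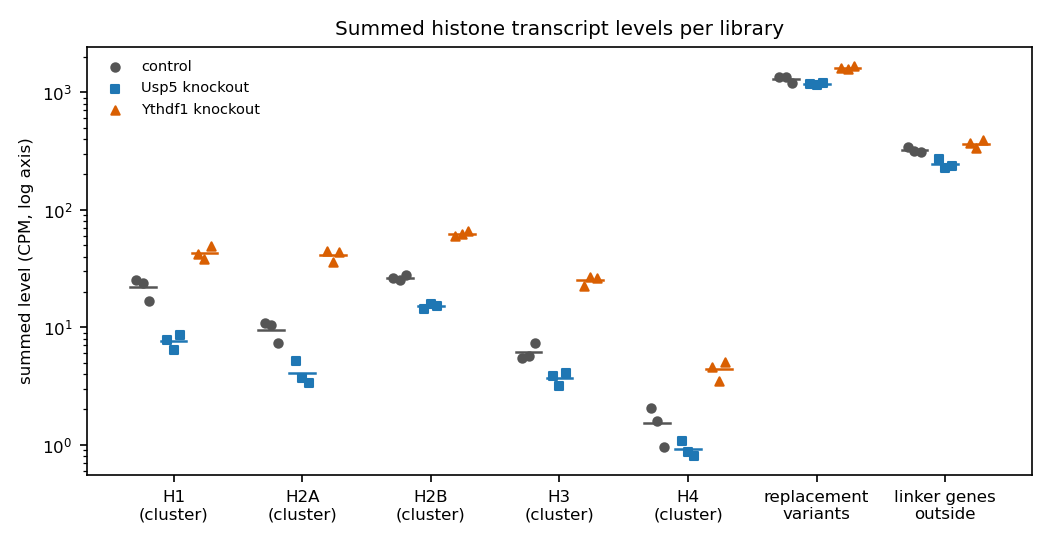
Summed level (CPM, log axis) of the cluster genes by histone type, of the 5 replacement variants and of the linker genes outside the clusters, with 1 point per library and a bar at the mean of 3. For each cluster type the Usp5 knockout mean lies below that of control, with overlapping libraries for H4, and the Ythdf1 knockout lies above control, while the replacement variants stay between 1148 and 1659 CPM in all 9 libraries.

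All 5 histone types took part, to different degrees. Relative to the control mean, the Usp5 knockout held 34.6% of cluster H1, 42.8% of H2A, 56.9% of H2B, 60.2% of H3 and 59.9% of H4 transcripts. The Ythdf1 knockout held 197% of H1, 432% of H2A, 237% of H2B, 410% of H3 and 286% of H4. H1 transcripts, from linker histones that bind the DNA between nucleosomes, thus had the lowest percentage in both knockouts, although H1f2 alone supplied most of them. H4 was the scarcest type, at 1.54 ± 0.542 CPM in control, 0.921 ± 0.142 in the Usp5 knockout and 4.39 ± 0.826 in the Ythdf1 knockout (SD, n = 3). One H4 library overlapped: control replicate 3 (0.966 CPM) lay below Usp5 knockout replicate 1 (1.08 CPM).

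Both clusters showed this order. The chromosome 13 genes summed to 42.0 ± 5.48 CPM in control, 16.5 ± 1.13 in the Usp5 knockout and 115 ± 9.96 in the Ythdf1 knockout (SD, n = 3), or 39.4% and 275% of control. The chromosome 3 genes summed to 23.7 ± 0.377, 14.8 ± 0.350 and 61.3 ± 2.80 CPM, or 62.6% and 259%. The abundant genes H1f2, H2bc4 and H2bc21 did not set the pattern alone: the other 61 cluster genes stood at 51.7% and 402% of control. Genes whose annotated transcript ends near the stem-loop reached 45.7% and 410% of control, and those that run past it 40.05% and 262%. Those in which no stem-loop was found reached 57.9% and 223%. The last class mixes genes with short annotated transcripts and H2bc21, which has an annotated end with a poly(A) signal.

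RNA classes that lack a poly(A) tail were read beside these sums. Small nuclear, small nucleolar and Cajal body RNAs each stayed at or below 0.658 CPM in every library. Their means were 0.0377, 0.0444 and 0.0535 CPM in control and 0.281, 0.278 and 0.126 CPM in the Usp5 knockout, with overlapping libraries. In the Ythdf1 knockout they were 0.0251, 0.0255 and 0.0381 CPM. Rows of the ribozyme type had means of 0.812, 0.754 and 1.40 CPM in control, Usp5 knockout and Ythdf1 knockout, the last at 172% of control. Most of it was Rpph1, the RNA of ribonuclease P, at 186% of control in the Ythdf1 knockout (0.881 to 1.92 CPM against 0.483 to 0.975 CPM in controls). Miscellaneous RNA rows read 150.1 CPM in Usp5 knockout replicate 2 and at most 3.34 CPM in the other libraries. Rows of the ribosomal RNA type ran from 962 to 3049 CPM in controls, 702 to 1252 in the Usp5 knockout and 1842 to 2323 in the Ythdf1 knockout, so their Ythdf1 knockout levels lay inside the control range. Malat1, whose end is a triple helix, stood at 86.6 to 112 CPM in controls, 80.6 to 89.1 in the Usp5 knockout and 38.0 to 63.4 in the Ythdf1 knockout, so both knockout means (84.9 and 49.0 CPM) lay below that of control (100.04 CPM). The part that carry-over of RNA without a tail plays in the histone levels was not tested.

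Gene by gene, 35 of the 74 members had enough counts to be tested: 27 cluster genes, 3 linker genes outside the clusters and all 5 variants. Passing the count filter was not independent of the groups. The filter's limit was 0.352 CPM. Of 27 cluster genes, 23 were above it in all Ythdf1 knockout libraries, 17 in all controls and 6 in all Usp5 knockout libraries. In 6 (H1f3, H2bc12, H2bc24, H3c6, H4c1 and H4c8) only the Ythdf1 knockout had all its libraries above the limit. A gene passed with any 3 libraries above it. H3c6 would have passed without the Ythdf1 knockout, but the rest of these 6 would not, nor would H2ac7, H2ac11 and H2ac12. For genes that needed that group, the choice of tested genes favours a high Ythdf1 knockout value. H2bc23 needed the Usp5 knockout, which favours a high value there. The values of all these genes are a description. Counts over the tested genes are therefore a description. In the Usp5 knockout 9 of the 35 were lower and 1 was higher, where 9.8% and 9.96% of all 13661 tested genes were (19.8% in either direction). Their median log2 fold change was -0.70 against -0.01 over all genes. In the Ythdf1 knockout 22 were higher and 1 was lower, where 23.7% and 22.8% of all genes were (46.5% in either direction), with a median of 1.38 against 0.02. Between knockouts 26 were lower in the Usp5 knockout than in the Ythdf1 knockout and 1 was higher, where 25.2% and 23.3% of all genes were (48.5% in either direction), with a median of -2.10 against 0.00028. All 3 comparisons share libraries.

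**Figure D2:**
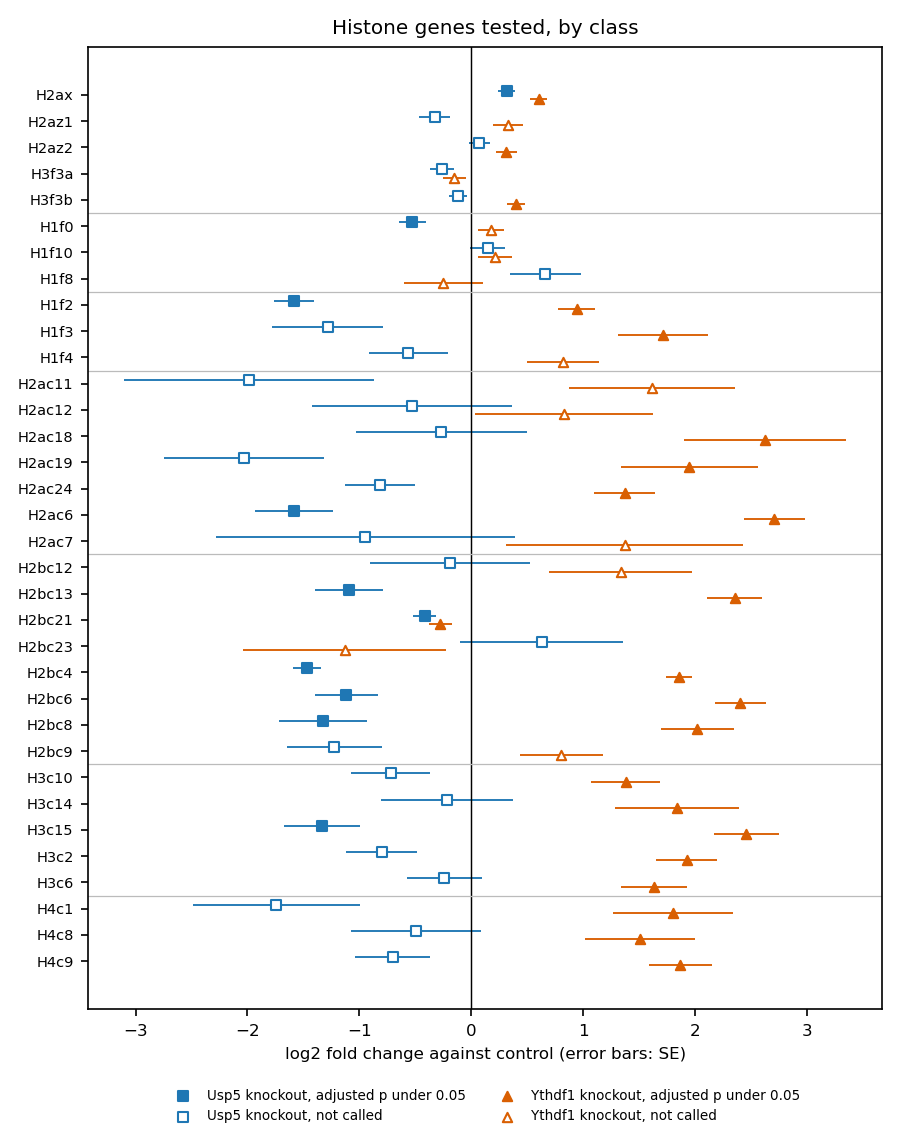
Log2 fold change against control with its SE for 34 tested histone genes, grouped as variants, linker genes outside the clusters and cluster H1, H2A, H2B, H3 and H4 genes. Squares are the Usp5 knockout, triangles the Ythdf1 knockout, and filled marks passed the test. H2bc24, with 0 counts in the Usp5 knockout, is not drawn. Most cluster genes lie left of 0 in the Usp5 knockout and right of 0 in the Ythdf1 knockout, with H2bc21 and H2bc23 apart.

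H1f2 (ENSMUSG00000036181), which encodes linker histone H1.2, was the most abundant cluster gene in control. Its levels were 24.1, 22.6 and 15.8 CPM in control, 7.30, 5.95 and 7.74 CPM in the Usp5 knockout, then 39.0, 35.0 and 46.8 CPM in the Ythdf1 knockout. The groups did not overlap. H1f2 fell by 1.58 ± 0.18 on the log2 scale in the Usp5 knockout (SE; edgeR, Benjamini-Hochberg adjusted p = 0.000197) and rose by 0.94 ± 0.17 in the Ythdf1 knockout (adjusted p = 0.00128). After a correction for GC content and gene length the rise was 0.61 (adjusted p = 0.00389). H1f3, which passed the filter only through the Ythdf1 knockout, had a value of 1.71 there (adjusted p = 0.00586) and of -1.28 in the Usp5 knockout (adjusted p = 0.0947). H1f4 passed in neither, at -0.56 and 0.82 (adjusted p = 0.299 and 0.0594), but was lower in the Usp5 than in the Ythdf1 knockout by a log2 difference of -1.38 (adjusted p = 0.00795).

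H2bc4 (ENSMUSG00000018102), which encodes a core histone H2B, changed in opposite directions in the knockouts. Its levels were 11.1, 9.36 and 11.8 CPM in control, 3.41, 4.09 and 4.20 CPM in the Usp5 knockout, then 36.3, 38.1 and 41.9 CPM in the Ythdf1 knockout. Every Usp5 knockout library lay below, and every Ythdf1 knockout library above, all controls. H2bc4 fell by 1.47 ± 0.13 in the Usp5 knockout and rose by 1.86 ± 0.12 in the Ythdf1 knockout (log2, SE; edgeR, Benjamini-Hochberg adjusted p = 3.28e-05 and 3.38e-06). H2bc6, H2bc8 and H2bc13, each below 0.71 CPM on average in control, fell by 1.12, 1.32 and 1.09 in the Usp5 knockout (adjusted p = 0.0193, 0.0401 and 0.0291). They rose by 2.41, 2.02 and 2.36 in the Ythdf1 knockout (adjusted p = 3.54e-05, 0.000708 and 5.64e-05). Their Usp5 knockout calls rested on few counts. The H2bc6 call ended with only the 6 libraries compared and without control replicate 2 or Usp5 knockout replicate 2 (adjusted p up to 0.0754), the H2bc8 call in 8 of 19 alternatives (up to 0.136) and the H2bc13 call in 5 (up to 0.107).

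H2bc21 (ENSMUSG00000068854), an H2B gene of the chromosome 3 cluster, did not follow the other abundant genes. It has an annotated end with a poly(A) signal, and no stem-loop was found in it. Its levels were 11.98, 11.9 and 12.96 CPM in control, 8.50, 9.87 and 9.28 CPM in the Usp5 knockout, then 9.88, 10.9 and 9.63 CPM in the Ythdf1 knockout. Both knockouts lay below every control, and they overlapped each other. H2bc21 fell by 0.42 ± 0.10 in the Usp5 knockout (log2, SE; edgeR, Benjamini-Hochberg adjusted p = 0.0173). That call ended without Usp5 knockout replicate 1 (adjusted p = 0.0616). It fell by 0.28 ± 0.10 in the Ythdf1 knockout (adjusted p = 0.0469), a call lost in 9 of 19 alternatives, with adjusted p up to 0.519 and a value of -0.07 after the GC and length correction.

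H2bc24 showed the widest span. It had 5, 0 and 7 counts in the controls, 0 in each Usp5 knockout library and 63, 49 and 49 in the Ythdf1 knockout. Control and Usp5 knockout thus overlapped at 0, and their difference did not pass the test (edgeR, Benjamini-Hochberg adjusted p = 0.0921). Against a floor of 3 counts over the group, its Usp5 knockout level was at least 65.5-fold lower than the Ythdf1 knockout. With 12 counts over the controls and 1 control library at 0, no bound is given against control. Its level in the Ythdf1 knockout, the group through which alone it passed the filter, was 2.33, 1.88 and 1.85 CPM. Of its 31-base stretches, 89.5% also occur in another gene, so reads could be placed elsewhere. H2bc9 passed neither test against control, at -1.22 and 0.81 (adjusted p = 0.0679 and 0.0957), nor did H2bc12, at -0.19 and 1.34 (adjusted p = 0.878 and 0.109). H2bc23 had its highest mean, 0.524 CPM, in the Usp5 knockout and its lowest, 0.151 CPM, in the Ythdf1 knockout. It passed no test (adjusted p = 0.585 and 0.332). Without the Usp5 knockout it would not have passed the filter, so the choice of tested genes favours a high value there. Of the 31-base stretches of H2bc23, 98.3% also occur in another gene. The part that read placement plays in its values and in those of H2bc24 was not tested.

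Among H2A genes, H2ac18 and H2ac19 on chromosome 3 gave the largest signal. They are near-identical copies: all 31-base stretches of each occur in another gene. H2ac19 stood at 5.42, 5.92 and 3.62 CPM in control, 0, 2.62 and 1.35 in the Usp5 knockout, then 20.3, 13.7 and 24.4 in the Ythdf1 knockout. H2ac18 stood at 2.67, 1.65 and 1.77 CPM in control, 3.85, 0 and 0.886 in the Usp5 knockout, then 15.2, 13.4 and 9.41 in the Ythdf1 knockout. In the Usp5 knockout, replicate 1 gave all 164 counts of the pair to H2ac18 and replicate 2 all 75 to H2ac19, which is a split made in estimating the counts. Summed, the pair read 8.09, 7.57 and 5.39 CPM in control, 3.85, 2.62 and 2.23 in the Usp5 knockout, then 35.5, 27.1 and 33.8 in the Ythdf1 knockout, with no overlap between groups. Tested as 1 row, a choice made after the data had been seen, the pair fell by 1.26 ± 0.22 in the Usp5 knockout and rose by 2.18 ± 0.20 in the Ythdf1 knockout (log2, SE; edgeR, Benjamini-Hochberg adjusted p = 0.00282 and 3.15e-05). As separate rows, H2ac18 and H2ac19 had Ythdf1 knockout values of 2.63 and 1.95 (adjusted p = 0.0131 and 0.0238), calls lost in 2 and 6 of 18 alternatives, and neither passed in the Usp5 knockout (adjusted p = 0.84 and 0.0718).

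H2ac6, beside H2bc4 on chromosome 13, had a large Ythdf1 knockout rise. It read 0.711, 0.859 and 0.483 CPM in control, 0.141, 0.245 and 0.347 in the Usp5 knockout, then 3.96, 5.09 and 4.80 in the Ythdf1 knockout. H2ac6 fell by 1.58 ± 0.35 and rose by 2.71 ± 0.27 (log2, SE; edgeR, Benjamini-Hochberg adjusted p = 0.0108 and 4.54e-05). The fall was not called without control replicate 2 or without Usp5 knockout replicate 1 (adjusted p up to 0.0509). H2ac24 rose by 1.37 in the Ythdf1 knockout (adjusted p = 0.00239), or by 0.63 after the GC and length correction (adjusted p = 0.0417), and had a value of -0.81 in the Usp5 knockout (adjusted p = 0.0888). H2ac7, H2ac11 and H2ac12 would not have passed the filter without the Ythdf1 knockout. They passed neither test against control. Their values were -0.94, -1.98 and -0.53 in the Usp5 knockout, then 1.37, 1.62 and 0.83 in the Ythdf1 knockout.

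Of the 12 H3 genes 5 were tested and 7 were below the filter. H3c15 (ENSMUSG00000081058) read 2.31, 2.60 and 1.81 CPM in control, 0.423, 1.01 and 1.39 in the Usp5 knockout, then 12.1, 10.5 and 14.8 in the Ythdf1 knockout. H3c14 read 0.778, 0.906 and 3.74 CPM in control, 1.902, 0.875 and 1.54 in the Usp5 knockout, then 4.44, 9.08 and 4.72 in the Ythdf1 knockout. The H3c15 groups did not overlap, whereas for H3c14 control and Usp5 knockout did. H3c15 fell by 1.33 ± 0.34 and rose by 2.46 ± 0.29 (log2, SE; edgeR, Benjamini-Hochberg adjusted p = 0.0208 and 0.000131), and H3c14 rose by 1.84 (adjusted p = 0.0202). The H3c15 fall was lost in 4 of 18 alternatives (adjusted p up to 0.0822), and the H3c14 rise without control replicate 1 or 2 or Ythdf1 knockout replicate 2 (up to 0.0842). Of the 31-base stretches of H3c15 and H3c14, 64.2% and 100% also occur in another gene, which need not be the partner. Summed into 1 row the pair fell by 0.75 ± 0.23 and rose by 2.22 ± 0.22 (adjusted p = 0.0465 and 4.09e-05). Reads placed on a further gene are not recovered by this sum. H3c2 and H3c10 rose by 1.93 and 1.38 in the Ythdf1 knockout (adjusted p = 0.000327 and 0.00463) and had values of -0.80 and -0.72 in the Usp5 knockout, neither called. H3c6 was above the filter's limit in all libraries of the Ythdf1 knockout alone. It had values of 1.63 there and -0.24 in the Usp5 knockout (adjusted p = 0.00144 and 0.655). For H3c10 the rise was 0.65 after the GC and length correction (adjusted p = 0.192).

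Of the 12 H4 genes 3 were tested. H4c9 rose by 1.87 in the Ythdf1 knockout (edgeR, Benjamini-Hochberg adjusted p = 0.000504) and had a value of -0.70 in the Usp5 knockout (adjusted p = 0.169). H4c9 read 0.534, 0.395 and 0.362 CPM in control, 0.282, 0.175 and 0.347 in the Usp5 knockout, then 1.52, 1.46 and 1.85 in the Ythdf1 knockout. Its Ythdf1 knockout libraries lay above every other library. H4c1 and H4c8, which passed the filter only through the Ythdf1 knockout, had values of 1.80 and 1.51 there (adjusted p = 0.0193 and 0.028) and of -1.74 and -0.49 in the Usp5 knockout (adjusted p = 0.126 and 0.591). Their Ythdf1 knockout calls were lost in 3 and 5 of 18 alternatives (adjusted p up to 0.114 and 0.141), the GC and length correction among them.

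**Figure D3:**
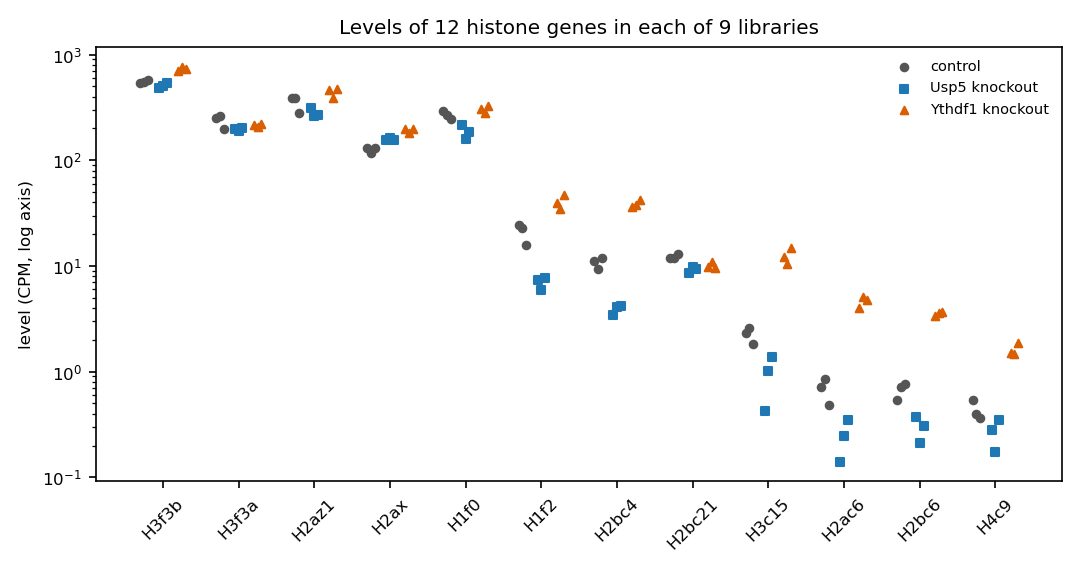
Level in CPM (log axis) of 12 histone genes in each of the 9 libraries, with variants and H1f0 on the left and cluster genes on the right. The 4 variants drawn lie between 118 and 767 CPM with small shifts between groups. H1f2, H2bc4, H3c15, H2ac6 and H2bc6 separate into 3 levels. For H4c9 the lowest control (0.362 CPM) lies close to the highest Usp5 knockout library (0.347 CPM), and that difference was not called.

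A further 37 cluster genes were below the filter, with 0 to 62 counts each over all 9 libraries. Of these, 5 had no count (H2ac23, H2bc1, H2bc14, H2bc15 and H3c11), as had the testis linker genes H1f7 and H1f9 outside the clusters. Together these 37 genes had 1.93 ± 0.495 CPM in control, 1.10 ± 0.373 in the Usp5 knockout and 4.34 ± 0.801 in the Ythdf1 knockout (SD, n = 3), or 56.7% and 224% of control. Control and Usp5 knockout libraries overlapped here (1.41 to 2.39 against 0.770 to 1.503 CPM), and the Ythdf1 knockout lay above both (3.78 to 5.26 CPM). The most abundant were H3c8, H3c7, H4c4, H3c4 and H2ac13. H3c8 had 24, 3 and 35 counts in control, Usp5 knockout and Ythdf1 knockout, and H3c7 had 4, 3 and 40. H4c4 had 18, 13 and 22, H3c4 had 12, 8 and 30, and H2ac13 had 18, 3 and 25.

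**Figure D4:**
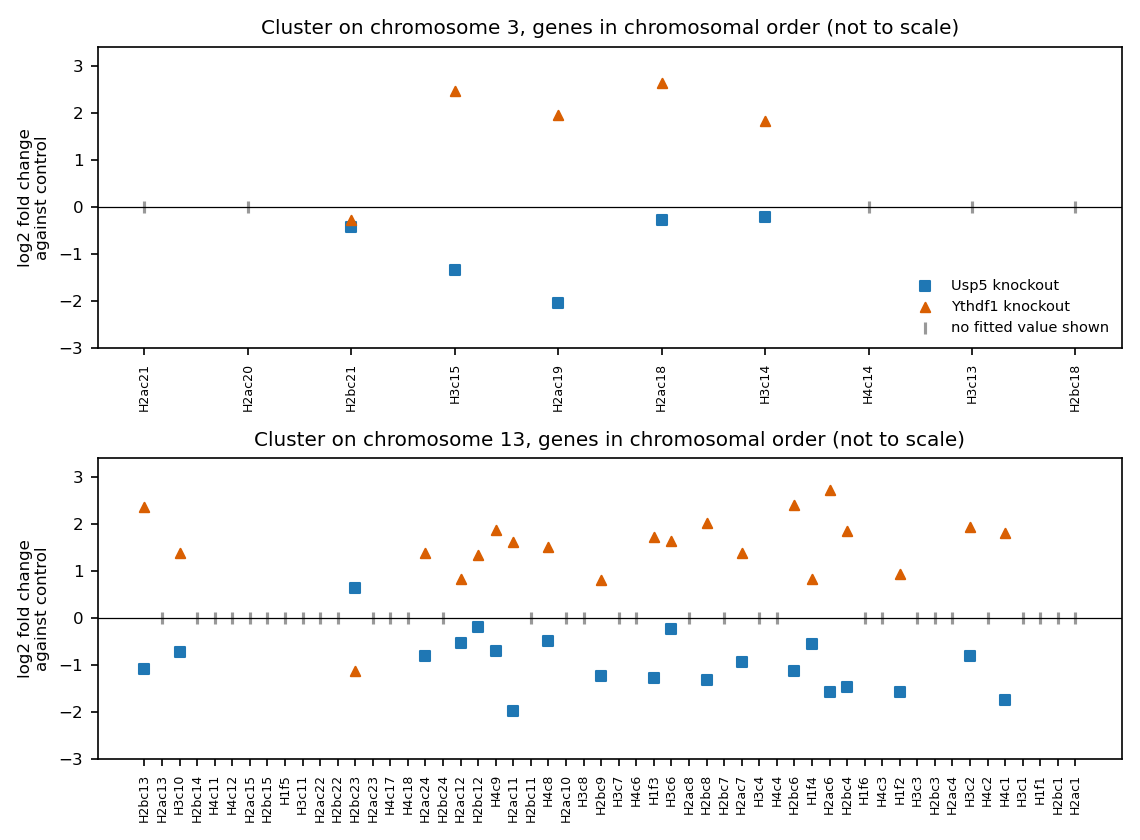
Log2 fold change against control of the cluster genes in chromosomal order (not to scale), with grey ticks for genes that have no fitted value shown. Genes with higher levels in the Ythdf1 knockout and lower levels in the Usp5 knockout are spread along both clusters. H2bc21 and H2bc23 have Ythdf1 knockout values of -0.28 and -1.13, of which that of H2bc23 was not called.

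The replacement variants were in sum far more abundant and differed less between groups. Their 5 genes summed to 1347, 1350 and 1206 CPM in control, 1183, 1148 and 1210 in the Usp5 knockout, then 1621, 1585 and 1659 in the Ythdf1 knockout. The Ythdf1 knockout lay above the other groups, and the Usp5 knockout overlapped control. The means were 1301 ± 82.0, 1180 ± 30.8 and 1622 ± 37.1 CPM (SD, n = 3), or 90.7% and 125% of control. Per kilobase of gene length in control, H2az1 stood at 333 CPM, H3f3b at 286, H3f3a at 203, H2ax at 91.5 and H2az2 at 23.4, against 13.4 for H1f2 and 9.29 for H2bc4.

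H3f3b and H3f3a encode the same protein, histone H3.3. H3f3b (ENSMUSG00000016559) read 538, 547 and 569 CPM in control, 478, 502 and 544 in the Usp5 knockout, then 697, 767 and 728 in the Ythdf1 knockout. H3f3a (ENSMUSG00000060743) read 249, 262 and 197 CPM in control, 199, 189 and 204 in the Usp5 knockout, then 215, 205 and 219 in the Ythdf1 knockout. H3f3b was higher in every Ythdf1 knockout library than in any other, while the H3f3a groups overlapped with control. H3f3b rose by 0.41 ± 0.08 in the Ythdf1 knockout (log2, SE; edgeR, Benjamini-Hochberg adjusted p = 0.00234). With values from 0.26 to 0.60 over the alternatives, the size of that rise depended on the processing, but not the call. H3f3a was not called, at -0.26 and -0.15 (adjusted p = 0.102 and 0.262).

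H2A.Z, a variant at promoters and enhancers, comes from H2az1 and H2az2. H2az1 (ENSMUSG00000037894) read 391, 387 and 279 CPM in control, 313, 261 and 270 in the Usp5 knockout, then 466, 392 and 471 in the Ythdf1 knockout. H2az2 (ENSMUSG00000041126) read 37.6, 35.3 and 29.9 CPM in control, 37.2, 35.3 and 35.9 in the Usp5 knockout, then 44.4, 40.9 and 42.8 in the Ythdf1 knockout. For both genes the Ythdf1 knockout lay above all controls and the Usp5 knockout overlapped them. H2az1 passed neither test against control (-0.33 and 0.33; edgeR, Benjamini-Hochberg adjusted p = 0.123 and 0.0731) but was lower in the Usp5 than in the Ythdf1 knockout, with a log2 difference of -0.66 (adjusted p = 0.00321). H2az2 rose by 0.32 in the Ythdf1 knockout (adjusted p = 0.0183), a call lost in 5 of 19 alternatives (adjusted p up to 0.235), among them library sizes alone and leaving out Ythdf1 knockout replicate 1 or 3.

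H2ax encodes the H2A variant that is phosphorylated around DNA breaks, and its transcript carries a stem-loop as printed above. H2ax (ENSMUSG00000049932) read 132, 118 and 130 CPM in control, 156, 161 and 157 in the Usp5 knockout, then 199, 180 and 198 in the Ythdf1 knockout. Both knockouts lay above every control. It rose by 0.32 ± 0.08 in the Usp5 knockout and by 0.60 ± 0.08 in the Ythdf1 knockout (log2, SE; edgeR, Benjamini-Hochberg adjusted p = 0.0147 and 0.000179). Neither call held after the correction for GC content and gene length, at 0.25 and 0.12 (adjusted p = 0.107 and 0.398), and the difference between knockouts then turned from -0.28 to 0.13. The Usp5 knockout call also ended with library sizes alone and when either control replicate 2 or Usp5 knockout replicate 2 was left out.

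Outside the clusters, H1f0 encodes the linker histone of slowly dividing and differentiated cells. H1f0 (ENSMUSG00000096210) read 290, 269 and 247 CPM in control, 217, 158 and 185 in the Usp5 knockout, then 307, 278 and 326 in the Ythdf1 knockout. The Usp5 knockout lay below all controls, and the Ythdf1 knockout overlapped them. H1f0 fell by 0.53 ± 0.12 in the Usp5 knockout (log2, SE; edgeR, Benjamini-Hochberg adjusted p = 0.0121), a call kept in all 19 alternatives, and had a value of 0.18 in the Ythdf1 knockout (adjusted p = 0.248). H1f10 (ENSMUSG00000044927), a divergent linker histone, read 48.9, 44.2 and 63.9 CPM in control, 54.6, 69.6 and 49.2 in the Usp5 knockout, then 60.03, 58.1 and 63.5 in the Ythdf1 knockout. Its groups overlapped and it passed no test (0.15 and 0.21; adjusted p = 0.539 and 0.277). H1f8, the oocyte linker histone, had a mean of 0.454 CPM in control, 0.726 in the Usp5 knockout and 0.388 in the Ythdf1 knockout. It was called only between knockouts (0.91; adjusted p = 0.0481), a call lost in 12 of 18 alternatives.

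Genes that make, process and turn over histone mRNA were listed for the same libraries. Of 33 tested, 1 was higher and 1 lower in the Usp5 knockout, with a median log2 fold change of 0.01. Over all tested genes 9.96% were higher and 9.8% lower. In the Ythdf1 knockout 5 were higher and 10 lower, with a median of -0.20, where 23.7% and 22.8% of all genes were higher and lower. Slbp, the stem-loop binding protein, had values of 0.07 and -0.17 in the Usp5 and Ythdf1 knockouts (edgeR, Benjamini-Hochberg adjusted p = 0.694 and 0.223). Npat, the coactivator of histone gene transcription, had values of -0.19 and -0.56 (adjusted p = 0.572 and 0.0519). Casp8ap2 (FLASH), which recruits the cleavage complex, fell by 0.83 in the Ythdf1 knockout (adjusted p = 0.00139) and was not called in the Usp5 knockout (-0.28). Of the U7 snRNP proteins, Lsm10 rose by 0.49 in the Ythdf1 knockout (adjusted p = 0.00265) and Lsm11 was not called (-0.36 and -0.26). The cap-binding subunit Ncbp2 rose by 0.33 in the Usp5 knockout and fell by 0.52 in the Ythdf1 knockout (adjusted p = 0.0116 and 0.000343). Cpsf2, of the cleavage complex, fell by 0.33 and 0.51 (adjusted p = 0.0266 and 0.00116). In the Ythdf1 knockout the scaffold Sympk rose by 0.45, the 3′ exonuclease Eri1, which trims histone mRNA ends, fell by 0.51, and Gon4l and Srrt fell by 0.61 and 0.50 (adjusted p at most 0.00196).

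Of 37 tested histone chaperones and deposition factors, 6 were higher and 0 lower in the Usp5 knockout, and 6 were higher and 12 lower in the Ythdf1 knockout, with medians of 0.03 and -0.05. Of all tested genes, the Usp5 knockout had 9.96% higher and 9.8% lower, and the Ythdf1 knockout 23.7% higher and 22.8% lower. Chaf1b, of the CAF-1 complex that deposits new H3 and H4 at replication forks, rose by 0.75 in the Usp5 knockout (edgeR, Benjamini-Hochberg adjusted p = 0.00058). Asf1b, which hands over H3 and H4, rose by 0.33 and 0.30 in the Usp5 and Ythdf1 knockouts (adjusted p = 0.0199 and 0.014). The H2A.Z-binding subunit Vps72 rose by 0.40 in each (adjusted p = 0.00476 and 0.0017). Hira, which deposits H3.3, fell by 0.84 in the Ythdf1 knockout, the H2A.Z chaperone Anp32e by 0.82 and the histone acetyltransferase Hat1 by 0.56 (adjusted p = 9.69e-05, 0.000138 and 0.000746). The count of genes called on these lists in the Usp5 knockout, 8, rose to 14 without control replicate 3 or after the GC and length correction, and fell to 3 with only the 6 libraries compared.

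Cluster histone genes are expressed in S phase, so cell cycle genes were read beside them. Of 44 tested S phase genes, 6 were higher and 3 lower in the Usp5 knockout, and 9 higher and 17 lower in the Ythdf1 knockout, with medians of 0.06 and -0.08. The same all-gene shares (9.96% and 9.8%, then 23.7% and 22.8%) stand beside these counts. E2f2, an activator of S phase genes, fell by 1.56 in the Usp5 knockout and rose by 0.34 in the Ythdf1 knockout (edgeR, Benjamini-Hochberg adjusted p = 6.6e-06 and 0.0169). E2f1 rose by 0.32 and 0.57 (adjusted p = 0.0191 and 0.000336). The origin subunit Orc1 fell by 0.54 and 0.99 (adjusted p = 0.00523 and 7.54e-05), and the helicase subunit Mcm7 rose by 0.53 in the Ythdf1 knockout (adjusted p = 0.000247). Of 22 G2 and M phase genes, 1 was higher and 15 lower in the Ythdf1 knockout (median -0.50) and 1 was higher in the Usp5 knockout (median 0.07). Top2a, Cenpf, Kif23 and Bub1b fell by 1.00, 1.13, 0.91 and 0.83 in the Ythdf1 knockout (adjusted p at most 0.000101). Cell cycle position was not measured, and its part in the histone levels was not tested.

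**Figure D5:**
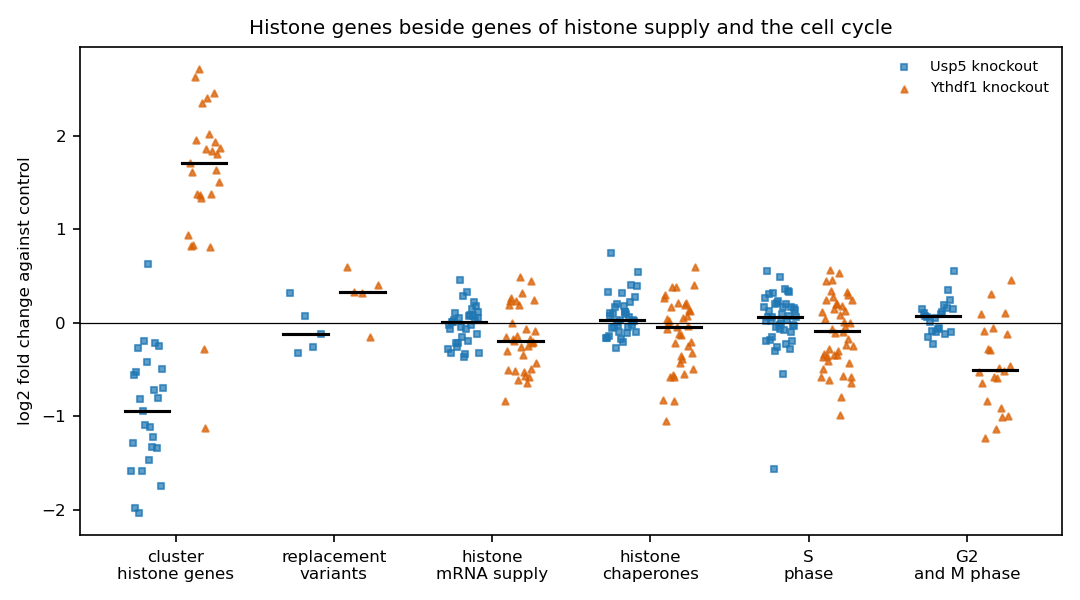
Log2 fold change against control of each tested gene of 6 groups, with the Usp5 knockout as squares, the Ythdf1 knockout as triangles and black bars at the medians. Cluster histone medians lie at -0.94 and 1.71, while the medians of the histone mRNA supply, chaperone and S phase lists lie between -0.20 and 0.06. H2bc24 counts in the median but is not drawn.

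Variant genes that the naming rule left out gave a mixed picture. H2aj, a replacement H2A, rose by 0.77 in the Ythdf1 knockout (edgeR, Benjamini-Hochberg adjusted p = 0.014), from 135 to 230.1 CPM on average. Cenpa, the centromeric H3, fell by 0.46 there (adjusted p = 0.0131). Macroh2a1 was not called against control (-0.13 and 0.20; adjusted p = 0.254 and 0.0526). Macroh2a2, H2bu2 and H3f4 stayed at or below 0.151 CPM on average in each group.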

How the data were processed

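RNA of 9 Hepa 1-6 samples was sequenced with an mRNA library kit, per the labels. The authors deposited 1 table of estimated counts per gene, as whole numbers. Per the submitters' processing notes, which give no roles, fastp 0.23.2, STAR 2.7.10a, Salmon 1.9.0 and GRCm39 were used. Annotation release and strand setting: not given in the sources used here. Overlapping or near-identical genes can therefore share reads. The 9 pairs of libraries within groups each differed beyond counting noise. Columns were matched to samples by description and groups by title.

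Counts were fitted in edgeR (4.0.16, under R 4.3.3; TMM scaling, filterByExpr with a minimum count of 10, quasi-likelihood test, all 9 samples, group as the only term), with Benjamini-Hochberg adjustment over 13661 genes and a threshold of 0.05. Errors on log2 values are standard errors. A group at 0 is bounded by a floor of 3 counts over the group, for counting error only. The fit was also run on simulated counts drawn around the control means, with changes set only in genes with many counts. That run does not cover genes with few counts, as most cluster genes are. Members and lists were chosen with earlier results of these data known. All members are accounted for: those tested are named with values, and of the others the 5 with the highest mean CPM. From the lists, Slbp, Npat, Casp8ap2, Lsm10 and Lsm11 are always given, with up to 4 called genes by lowest p in each list, comparison and direction. Lists are described by counts and medians, without a set test. Stem-loops, poly(A) signals and shared 31-base stretches come from GENCODE M21 transcripts, and gene order from the same annotation, a different build from that of the files, matched by identifier. Promoters come from a RefSeq table on GRCm38.p6.

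Alternatives tried were DESeq2 1.42.0, limma-voom (limma 3.58.1), library sizes alone, RLE scaling, no filter, a stricter filter (1 CPM in 3 samples), only the 6 samples compared, a replicate block and leaving out each sample. A GC and length correction and the summing of H2ac18 with H2ac19 and of H3c14 with H3c15 were added after the data had been seen.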

Additional observations from a re-analysis of the deposited data

Results flagged for a closer look

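Histone rows that the naming rule does not match also held signal. H2aw, an H2A gene, had a mean of 15.6 CPM in the Ythdf1 knockout, against 7.42 CPM in control and 4.03 CPM in the Usp5 knockout. Its libraries ran from 15.3 to 16.02 CPM, 6.20 to 8.31 CPM and 3.66 to 4.47 CPM in these groups. The pseudogene row H1f11-ps had a mean of 2.36 CPM in the Ythdf1 knockout, against 1.195 CPM in control and 0.934 CPM in the Usp5 knockout. In all, 37 such histone rows lie outside the rule, and 24 of them had 0 counts in every library. Both rows were picked because every Ythdf1 knockout library lay above every control, so that separation is not a result. No test result is given for either row, since both were noticed after their values had been seen.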

How the results depend on the processing

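Of 10 histone genes called in the Usp5 knockout, 3 (H1f2, H2bc4 and H1f0) kept the call in every alternative run for them. So did 14 of the 23 called in the Ythdf1 knockout and 22 of the 27 called between knockouts. The 14 include H1f3, H3c6 and H2bc24, and the 22 include these and H4c1. For those genes the Ythdf1 knockout was the only group with all libraries above the filter's limit, so their calls remain a description. Low counts limit the cluster genes most. The count of 9 lower genes in the Usp5 knockout was 5 with only the 6 samples compared and 6 to 14 when 1 library was left out (14 without control replicate 3). The count of 1 higher gene was 0 with library sizes alone and with the GC and length correction, and 0 to 1 with a library left out. Supply and chaperone genes called there went from 8 to 3 with only the 6 samples compared, to 14 with the GC and length correction and to 3 to 14 with a library left out. S phase genes went from 9 to 14 with the GC and length correction and to 5 to 15 with a library left out. In the Ythdf1 knockout the 22 higher genes became 17 with the GC and length correction and 18 with the stricter filter. They numbered 18 to 24 with a library left out. The count of 1 lower gene there was 2 with limma-voom. It was 0 with no filter, the replicate block or the GC and length correction, and 0 to 1 with a library left out. Between knockouts the count of 1 higher gene was 0 with DESeq2, the stricter filter, only the 6 samples compared or the replicate block, 2 with limma-voom, and 0 to 1 with a library left out. Summed replacement variants in the Ythdf1 knockout were 1548 in place of 1622 CPM when scaled to total counts. The cause of these shifts was not tested.

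Same-numbered samples did not deviate together (r from -0.257 to 0.298 over 9 pairs), so the labels' numbers are not taken to pair them. With the replicate block 8 histone genes were lower and 1 higher in the Usp5 knockout, 22 higher and 0 lower in the Ythdf1 knockout, and 26 lower and 0 higher between knockouts.

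Directions turned in the following comparisons, of which H2ax between knockouts was called in the reported test and the others were not. In the Usp5 knockout, leaving out a library gave ranges of -0.014 to 0.15 for H2az2, -0.0081 to 0.31 for H1f10, -1.09 to 0.49 for H2bc12, -2.25 to 0.27 for H2ac18, -1.53 to 0.24 for H2ac12, -2.15 to 0.17 for H2ac7 and -0.61 to 0.79 for H3c14. There H2az2 was -0.013 with library sizes alone and H3c14 was 0.23 with limma-voom. After the GC and length correction H1f10 was -0.38 and H1f0 -0.014 in the Ythdf1 knockout, and H1f10 was 0.40 and H2ax 0.13 between knockouts. Leaving out a library gave H1f10 a range of -0.19 to 0.036 between knockouts.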
